A study of Mus musculus with 26 samples.

Results

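This account covers 45 genes that build ribosomes, taken by symbol from a list of nucleolar and ribosome assembly factors. All 45 were found among the 24412 gene symbols of each of the 3 deposited tables of TPM, a level scaled to transcript length and to the sum of its library. RNA-seq was run on pools of 12 to 20 C57BL/6J mouse oocytes or embryos, 2 libraries per group, in 13 groups. The question was what maternal loss of Kdm3a and Kdm3b, which encode demethylases of lysine 9 on histone H3, does to transcripts around the activation of the zygotic genome. In the uninjected series, maternal double knockouts (mDKO) and controls were sampled as metaphase II oocytes (MII), at the early 2-cell stage (E2C) and at the late 2-cell stage (L2C, 20 embryos per pool). The mDKO material came from Zp3-Cre; Kdm3a f/f; Kdm3b f/f females, in which Cre is driven by the promoter of an oocyte gene, and embryos came from in vitro fertilization of their oocytes with wild-type sperm. The growth protocol is not given for the L2C samples, whose titles say DKO and whose genotype label says maternal DKO, and the labels do not give the genotype of the controls. In an injected series, E2C embryos from mDKO mothers received Kdm3aWT, Kdm3aHA or mCherry, a fluorescent protein, and control E2C embryos received mCherry. A last series held wild-type 4-cell (4C) embryos injected with Kdm3aWT, Kdm3aHA or mCherry. What was injected (RNA or protein) and what HA stands for are not given in the labels.

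Ribosomes are made in the nucleolus, where RNA polymerase I transcribes a long precursor of the ribosomal RNAs. Small nucleolar ribonucleoproteins modify this precursor, the small subunit processome folds and cleaves the part that becomes the small subunit, and helicases, GTPases and scaffold proteins shape the large subunit before both leave the nucleus. In the mouse, oocytes bring a store of ribosomes and form atypical nucleoli, and the embryo resumes ribosomal RNA synthesis during the 2-cell stage, when its own genome is activated.

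Of the 45 genes, 39 had an entry in the RefSeq promoter table (GRCm38.p6), and Bop1, Rrs1, Npm1, Fbl, Cebpz and Rrp12 had none. The 250 bases upstream of the annotated start are shown for 4 genes that ranked first or second for the L2C difference within their functional group, because these genes carry the L2C differences described later. Each runs 5′ to 3′ on the gene's strand and ends at the base before the start. Capitals mark a match to 1 of 4 short motifs searched on both strands: CACGTG (the MYC-MAX E-box), CCGGAAGT (ETS), TGCGCATGC (NRF1) and AAGATGGC (YY1-type), whose letters do not overlap each other in these windows.
Ddx21, chr10:62602299-62602548, minus strand: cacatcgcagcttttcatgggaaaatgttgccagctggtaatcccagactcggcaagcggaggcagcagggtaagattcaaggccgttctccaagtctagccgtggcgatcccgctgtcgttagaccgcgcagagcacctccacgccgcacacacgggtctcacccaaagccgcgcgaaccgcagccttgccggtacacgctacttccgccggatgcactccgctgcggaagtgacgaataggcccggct
Ftsj3, chr11:106256085-106256334, minus strand: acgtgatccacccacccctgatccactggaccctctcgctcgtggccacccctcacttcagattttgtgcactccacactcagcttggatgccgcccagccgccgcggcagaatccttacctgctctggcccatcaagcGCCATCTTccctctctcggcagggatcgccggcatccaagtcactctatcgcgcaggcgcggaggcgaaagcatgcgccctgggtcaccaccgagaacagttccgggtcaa
Utp3, chr5:88554212-88554461, plus strand: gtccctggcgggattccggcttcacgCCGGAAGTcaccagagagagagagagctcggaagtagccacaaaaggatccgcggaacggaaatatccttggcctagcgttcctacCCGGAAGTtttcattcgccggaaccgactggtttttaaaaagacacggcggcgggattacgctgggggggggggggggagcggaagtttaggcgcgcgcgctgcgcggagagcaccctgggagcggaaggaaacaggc
Nhp2, chr11:51619523-51619772, plus strand: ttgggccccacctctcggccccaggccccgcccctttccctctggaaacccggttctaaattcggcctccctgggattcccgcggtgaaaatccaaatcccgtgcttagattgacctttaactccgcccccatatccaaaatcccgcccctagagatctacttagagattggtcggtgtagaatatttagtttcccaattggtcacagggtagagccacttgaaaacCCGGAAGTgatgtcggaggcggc
Ddx21 had no match, Ftsj3 had the YY1-type letters on the opposite strand 111 bases upstream of the start, Utp3 had the ETS letters at 224 and 138 bases upstream, and Nhp2 had them 23 bases upstream. In the full windows of 300 bases, which also take in 50 bases after the start, the E-box was found in 7 of 39 member promoters (17.9%), against 7.24% of all 27025 promoters and 10.1% of the 9555 promoters of genes tested at L2C. The ETS letters were found in 6 (15.4%, against 4.00% of all and 8.34% of those tested at L2C), the YY1-type letters in 2 (5.13%, against 2.88% and 4.74%) and the NRF1 letters in 0 (against 1.59% and 3.14%). Member promoters held a median of 22 CpG dinucleotides, from 7 to 44, against 7 over all promoters and 20 over those of genes tested at L2C. These matches describe the letters only.

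The targeted genes followed the labels in oocytes. Kdm3a had 0.725 and 0.718 TPM in MII mDKO libraries, against 8.08 and 8.83 TPM in MII controls, and Kdm3b had 1.75 and 1.87 TPM in MII mDKO libraries, against 26.6 and 24.97 TPM in MII controls. In L2C embryos Kdm3a had 28.4 and 26.3 TPM in mDKO libraries and 34.1 and 43.8 TPM in controls, so transcripts that counted as Kdm3a were present in both at this stage. Injected E2C mDKO embryos had 4122 and 2314 TPM of Kdm3a after Kdm3aWT, 4043 and 3907 TPM after Kdm3aHA and 0.262 and 0.411 TPM after mCherry. Injected 4C embryos had 108 and 53.4 TPM of Kdm3a after Kdm3aWT and 70.5 and 161 TPM after Kdm3aHA. After mCherry the 4C embryos had 21.8 and 6.24 TPM. Libraries held 7649 to 12396 genes at 1 TPM or more. The second 4C mCherry library stood apart with the 7649 genes, against 8754 to 9313 in the other 5 libraries of that series. Read depth is not recoverable from TPM. The labels do not say that pools came from separate matings, so p-values measure the spread between libraries, which may be technical. In these bulk pools, fewer cells with a transcript and less RNA per cell cannot be told apart.

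Together the 45 genes took a larger share of TPM in 2-cell embryos than in MII oocytes, and in L2C embryos that share was lower in mDKO libraries. MII libraries were made with a TruSeq Stranded kit and E2C libraries with SMART-Seq kits. The labels give no kit for L2C, so stage and kit cannot be told apart where stages are compared. The share was 0.206% and 0.197% in MII mDKO libraries and 0.190% and 0.206% in MII controls. It was 0.408% and 0.365% in E2C mDKO libraries and 0.334% and 0.314% in E2C controls. In L2C it was 0.410% and 0.393% in mDKO libraries, against 0.809% and 0.801% in controls, and the L2C groups did not overlap. Npm1 was the most abundant of the 45 in every library. Without it, the other genes summed to 1619 and 1547 TPM in E2C mDKO libraries, against 1412 and 1252 TPM in E2C controls. At L2C they summed to 2984 and 2782 TPM in mDKO libraries, against 6444 and 6476 TPM in controls, so without Npm1 the L2C mDKO sums lay above the E2C sums and below those of L2C controls.

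**Figure D1:**
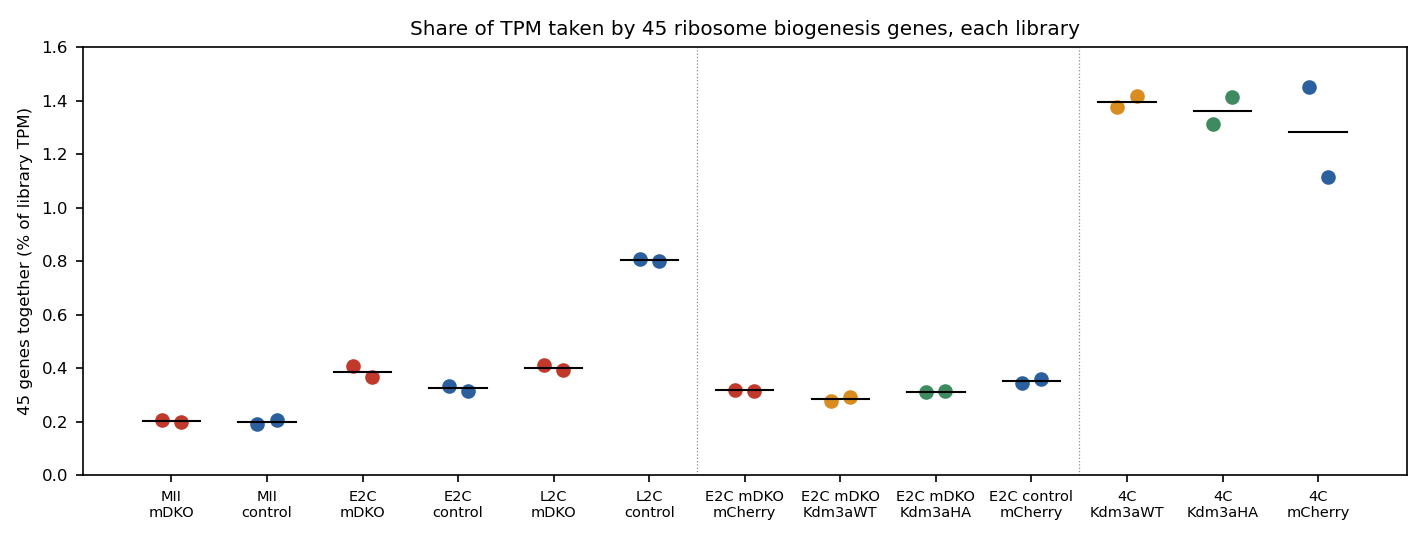
Share of each library's TPM taken by the 45 genes (y axis, percent), with 1 point per library and a line at the mean of the 2 libraries of each group on the x axis. L2C mDKO libraries sit at 0.410% and 0.393%, below the L2C controls at 0.809% and 0.801%, and the 4C libraries, from a separately made table, lie above all the 2-cell libraries.

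In L2C embryos nearly the whole set, which was chosen with earlier results of these data known, was lower in mDKO. All 45 genes were tested with limma on log2(TPM + 1), and 43 fell at a Benjamini-Hochberg adjusted p under 0.05, against 23.3% of all 12606 genes tested; 0 rose, against 19.1% of all genes, and 0 members were higher at an unadjusted p under 0.05. Every member had both mDKO libraries below both control libraries, against 37.6% of all genes. The median log2 fold change was -1.06, with a range from -1.89 to -0.08, while the median over all genes was -0.00066; fold changes here and below are log2 values on the log2(TPM + 1) scale, with the SE from limma after ±. As a share of the control mean, the mDKO level had a median of 45.6% and ran from 25.3% for Ddx21 to 94.0% for Noc3l, and 33 of the 45 genes were under 50%. The 2 members that did not pass were Pes1 and Noc3l.

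**Figure D2:**
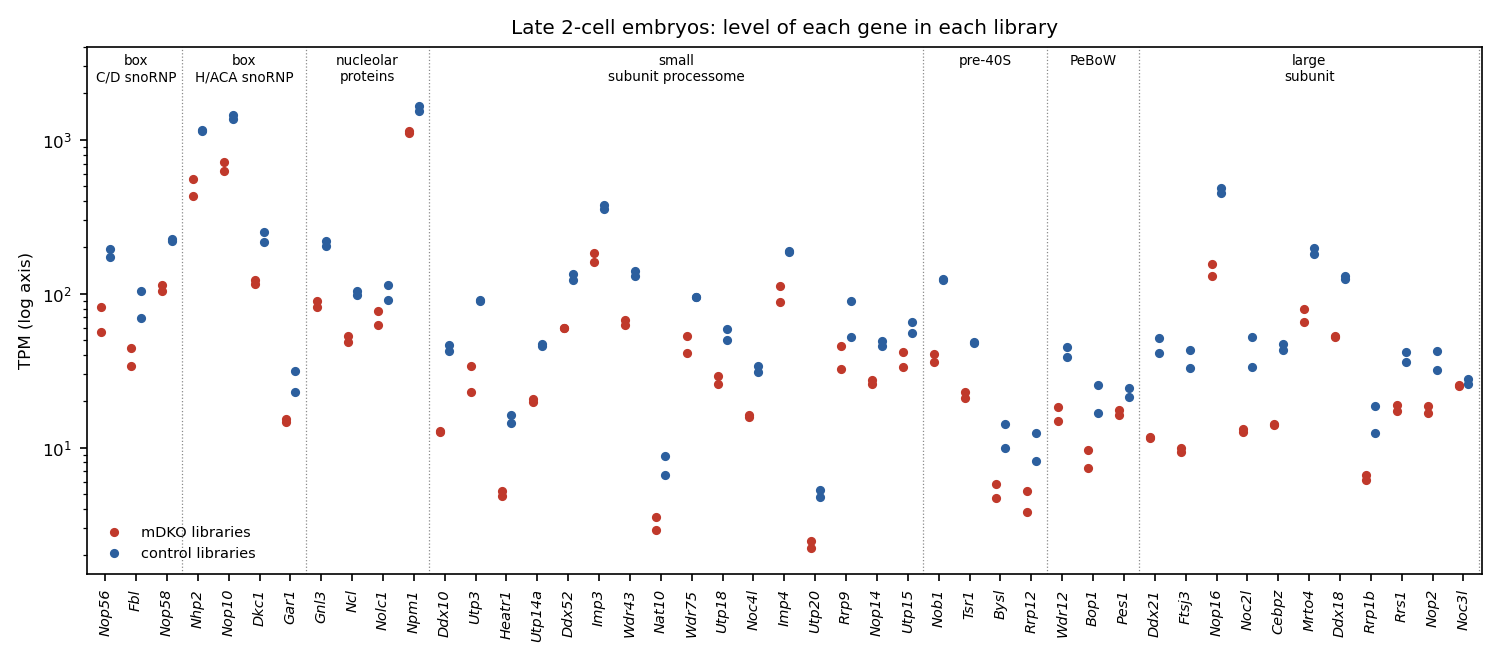
Level of each of the 45 genes (x axis, grouped by function and ordered by fold change within a group) in each L2C library (y axis, TPM on a log axis), with mDKO libraries in red left of control libraries in blue. The red points of every gene lie below its blue points, most closely for Noc3l.

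The proteins of the box C/D particles, which guide the methylation of ribosomal RNA, all fell. Nop56, a scaffold of these particles, had 81.3 and 56.1 TPM in mDKO libraries, against 172 and 196 TPM in control libraries. Nop58, its partner, had 113 and 104 TPM in mDKO libraries, against 221 and 225 TPM in control libraries. Fbl, the methyltransferase fibrillarin, had 44.4 and 33.9 TPM in mDKO libraries, against 69.1 and 104 TPM in control libraries. None of these groups overlapped, and the control libraries of Fbl were the least alike. The log2 fold changes were -1.43 ± 0.19 for Nop56 (SE; adjusted p = 0.00127), -1.04 ± 0.11 for Nop58 (adjusted p = 0.000664) and -1.11 ± 0.22 for Fbl (adjusted p = 0.00732).

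The box H/ACA particles, which convert uridines to pseudouridines, include 4 of the genes, and all 4 fell. Nhp2, a core protein of these particles, had 554 and 432 TPM in mDKO libraries, against 1140.1 and 1151 TPM in control libraries. Nop10, the smallest core protein, had 629 and 719 TPM in mDKO libraries, against 1449.6 and 1354 TPM in control libraries. These were the third and the second most abundant of the 45 transcripts in L2C controls, after Npm1. Nhp2 fell by 1.23 ± 0.13 on the log2 scale (adjusted p = 0.000662) and Nop10 by 1.06 ± 0.11 (adjusted p = 0.000547). Dkc1, the pseudouridine synthase, changed by -0.96 ± 0.12 and Gar1, which joins the mature particle, by -0.80 ± 0.20.

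Among the abundant nucleolar proteins, Gnl3 and Ncl fell further than Nolc1 and Npm1 by their point estimates; the difference between genes was not tested. Gnl3, the GTPase nucleostemin, had 89.6 and 81.3 TPM in mDKO libraries, against 221 and 205 TPM in control libraries. Ncl, nucleolin, which binds nascent ribosomal RNA, had 52.9 and 48.3 TPM in mDKO libraries, against 103 and 98.5 TPM in control libraries. The log2 fold change was -1.31 ± 0.12 for Gnl3 (adjusted p = 0.00039) and -0.98 ± 0.13 for Ncl (adjusted p = 0.00123). Nolc1, a chaperone of small nucleolar particles, stood at 67.7% of the control mean and changed by -0.56 ± 0.17. Npm1, nucleophosmin, stood at 70.9% and changed by -0.50 ± 0.10; it has processed pseudogenes that can share its reads, so its level is uncertain.

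All 16 small subunit processome genes fell, with log2 fold changes from -1.72 to -0.68. Ddx10, a helicase whose yeast counterpart is Dbp4, had 12.6 and 12.9 TPM in mDKO libraries, against 46.6 and 42.4 TPM in control libraries. Utp3, the counterpart of yeast Sas10, had 22.9 and 33.8 TPM in mDKO libraries, against 91.5 and 90.1 TPM in control libraries. The mDKO libraries of Ddx10 were nearly equal, while those of Utp3 were further apart, and neither gene's groups overlapped. Ddx10 changed by -1.72 ± 0.16 (adjusted p = 0.000388) and Utp3 by -1.67 ± 0.19 (adjusted p = 0.000787). The early-binding UTP-A proteins Heatr1, Wdr43, Wdr75 and Utp15 changed by -1.43 ± 0.20, -1.04 ± 0.12, -1.01 ± 0.15 and -0.68 ± 0.17. Utp18 of the UTP-B complex changed by -0.96 ± 0.16. Imp3 and Imp4, which in yeast help pair the U3 RNA with the precursor, changed by -1.08 ± 0.12 and -0.91 ± 0.14. Rrp9, the protein specific to the U3 particle, changed by -0.81 ± 0.27, with an adjusted p of 0.0476. The scaffold Utp20, the partners Nop14 and Noc4l, the helicase activator Utp14a, the RNA acetyltransferase Nat10 and the helicase Ddx52 changed by -0.85 ± 0.23, -0.80 ± 0.14, -0.96 ± 0.16, -1.16 ± 0.14, -1.04 ± 0.25 and -1.08 ± 0.12.

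Of the factors that mature the small subunit precursor later, all 4 fell. Nob1, the nuclease that makes the last cut at the end of the small subunit RNA, had 40.7 and 36.1 TPM in mDKO libraries, against 123 and 125 TPM in control libraries. Tsr1, a GTPase-like factor that stays on the late precursor, had 21.1 and 22.8 TPM in mDKO libraries, against 48.5 and 47.9 TPM in control libraries. The 2 libraries of each group lay close together for both genes. Nob1 changed by -1.66 ± 0.13 (adjusted p = 0.000257) and Tsr1 by -1.10 ± 0.14 (adjusted p = 0.00128). Bysl, a factor of the nuclear precursor, changed by -1.05 ± 0.25 and Rrp12, which serves its export, by -1.02 ± 0.27.

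The PeBoW complex, in which Pes1, Bop1 and Wdr12 act together on the large subunit, had 2 members that fell and 1 that did not pass the test. Wdr12 had 18.5 and 14.97 TPM in mDKO libraries, against 44.9 and 38.7 TPM in control libraries. Bop1 had 9.58 and 7.37 TPM in mDKO libraries, against 16.7 and 25.4 TPM in control libraries. Pes1 had 17.6 and 16.3 TPM in mDKO libraries, against 21.3 and 24.4 TPM in control libraries. The groups did not overlap for any of the 3, but Pes1 had the closest groups. Wdr12 fell by 1.28 ± 0.17 (adjusted p = 0.00155) and Bop1 by 1.20 ± 0.25 (adjusted p = 0.00814), while the log2 fold change of Pes1 was -0.41 ± 0.17 (adjusted p = 0.0902). Whether Pes1 differed from its partners was not tested.

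Of the other 11 large subunit factors, 10 fell, and these included the lowest 2 of the set. Ddx21, a helicase of the nucleolus that binds ribosomal and small nucleolar RNAs, had 11.8 and 11.6 TPM in mDKO libraries, against 41.4 and 51.2 TPM in control libraries. Ftsj3, a methyltransferase of the precursor whose yeast counterpart is Spb1, had 9.88 and 9.42 TPM in mDKO libraries, against 32.8 and 43.3 TPM in control libraries. Both thus stood at about 25.3% and 25.4% of the control mean. Nop16, the most abundant of these 11 in controls, changed by -1.72 ± 0.13 and stood at 30.4%. Of the Noc family, Cebpz, the counterpart of yeast Noc1, changed by -1.60 ± 0.15 and Noc2l by -1.62 ± 0.22. Noc3l, of the same family, had 25.2 and 25.5 TPM in mDKO libraries, against 25.96 and 27.9 TPM in controls, a log2 fold change of -0.08 ± 0.15 (adjusted p = 0.681). Mrto4, which in yeast holds the place of a stalk protein, changed by -1.38 ± 0.14, the helicase Ddx18 by -1.26 ± 0.12 and the nucleolar protein Rrp1b by -1.13 ± 0.24. Rrs1, which in yeast helps bring in the 5S particle, changed by -1.06 ± 0.16 and the methyltransferase Nop2 by -1.01 ± 0.19.

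Of the 43 calls, 34 held in all 10 alternative analyses, and leaving out 1 library left 36 to 41. The 9 others were Gar1, Npm1, Nolc1, Utp15, Utp20, Rrp9, Nat10, Rrp12 and Bysl. Markers of other programmes moved in the same comparison. Of 10 oocyte markers, 8 rose and 1 fell, and their summed level was 13799 and 14702 TPM in L2C mDKO libraries, against 5360.5 and 4578 TPM in controls, with no marker at 0. All 10 markers of the 2-cell embryo rose, with summed levels of 3252 and 2698 TPM in mDKO libraries, against 1088 and 837 TPM in controls, and none at 0. Of 13 cumulus and granulosa cell markers, 5 were tested and 1 rose, with sums of 142 and 102 TPM in mDKO libraries, against 51.2 and 51.1 TPM in controls. The part of these programmes in the result was not tested.

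Most of the other ribosome assembly factors tested also fell at L2C. Like the members, they were listed with earlier results of these data known, so their counts are not independent support. Of 147 further factors, 143 were tested, 113 fell, against 23.3% of all genes, 3 rose, against 19.1%, and 27 were not called. Of the RNA polymerase I machinery, 12 of 14 fell, with Znrd1 and Polr1e, subunits of the enzyme, lowest at -1.82 ± 0.16 and -1.78 ± 0.15. Of the other small subunit factors, 31 of 39 fell, with Tsr2 and the helicase Ddx47 at -1.91 ± 0.19 and -1.74 ± 0.15, and the kinase Riok1 rose by 0.51 ± 0.12. Of the other large subunit factors, 36 of 42 fell, led by Wdr74 (-1.91 ± 0.17) and Rpf2 (-1.89 ± 0.18), and Rrnad1 rose by 0.93 ± 0.19. Of the factors of export and cytoplasmic maturation, 9 of 11 fell, with Heatr3 at -1.45 ± 0.24 and Zfp622 at -1.15 ± 0.15. Of the exosome and RNase MRP genes, 16 of 26 fell, with Exosc5 and Exosc4 at -1.86 ± 0.16 and -1.66 ± 0.21, while Mphosph6, an exosome cofactor, rose by 1.32 ± 0.12. Of the assembly factors of small nucleolar particles, 9 of 11 fell, with Znhit6 at -1.93 ± 0.16 and Nhp2l1 at -1.35 ± 0.09.

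The Myc network, whose proteins bind the E-box and are known to regulate many ribosome assembly genes, moved in both directions at L2C. Of 8 tested members 2 fell, against 23.3% of all genes, and 3 rose, against 19.1%. Counts from 8 genes do not set the network apart, and its part in the result was not tested. Myc itself had 1.76 and 2.86 TPM in L2C mDKO libraries, against 5.66 and 6.38 TPM in controls, a fall of 1.10 ± 0.26 on the log2 scale (adjusted p = 0.0145), and Mga, a repressor of the network, fell by 0.53 ± 0.16. The antagonists Mxd1 and Mxd4 rose by 0.81 ± 0.19 and 0.66 ± 0.21, and Max, the common partner, rose by 0.41 ± 0.14.

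In E2C embryos few of the genes were called, and most of those were higher in mDKO. Of 43 members tested, 6 rose in mDKO, against 5.38% of all 11140 genes, and 2 were called lower, against 8.99%; the median log2 fold change was 0.32, against -0.01 over all genes. Bop1 and Rrp12 were too low to be tested. Cebpz had 28.5 and 21.1 TPM in mDKO libraries, against 7.09 and 6.40 TPM in controls, a rise of 1.72 ± 0.23 (adjusted p = 0.00265). Nolc1 had 36.6 and 39.99 TPM in mDKO libraries, against 22.00 and 17.1 TPM in controls, and Ftsj3 had 26.9 and 25.3 TPM in mDKO libraries, against 15.9 and 12.8 TPM in controls. Both had mDKO libraries above both controls, with log2 fold changes of 0.95 ± 0.20 and 0.82 ± 0.20. Ncl, Ddx18 and Gnl3 rose by 0.69 ± 0.16, 0.67 ± 0.17 and 0.56 ± 0.15. Of the genes called lower, Nhp2 had 43.6 and 46.5 TPM in mDKO libraries, against 69.6 and 65.9 TPM in controls (-0.58 ± 0.16), and Nop16 had 0.189 and 0.897 TPM in mDKO libraries, against 2.24 and 5.84 TPM in controls (-1.65 ± 0.40). Nop16 reached 1 TPM in the control libraries alone and so passed the filter through the group where it was higher; its call supports nothing, and Nhp2 is the 1 other member called lower. Cebpz alone of these 8 kept its call in all 10 alternatives, with adjusted p values up to 0.0386. Members gained calls without either mDKO library and lost calls without either control library. Each of these fits leaves 1 library in a group, and shares over all genes are not given. Of the wider machinery 13 of 132 genes tested at E2C rose and 12 fell. Of 10 oocyte markers 3 rose, with sums of 19922 and 19347 TPM in mDKO libraries, against 14239 and 15716 TPM in controls. Of 10 blood markers 3 were tested, 0 rose and 1 fell. Their sums were 3.13 and 266 TPM in mDKO replicates 1 and 2, against 88.2 and 25.6 TPM in controls. All 10 markers of the 2-cell embryo fell at E2C, with sums of 304 and 340.4 TPM in mDKO libraries, against 1471 and 2093 TPM in controls, and 3 of 5 tested cumulus and granulosa markers rose, with sums of 208 and 257 TPM in mDKO libraries, against 117 and 111 TPM in controls; their part in the result was not tested.

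In MII oocytes no member passed the test. limma called 0 of 43 tested members higher, against 0.845% of all 10765 genes, and 0 lower, against 3.41%, while 8 members and 2657 genes had an unadjusted p under 0.05. Nop16 and Wdr12 were too low to be tested. The members' median log2 fold change was -0.08, against -0.05 over all genes, and -0.01 under size-factor scaling. With all 12 uninjected libraries in 1 fit, 2 members were called higher and 1 lower. The shares over all genes are not given for that fit, so these counts do not set the members apart. Members also gained calls with the replicate number as a block, as described in the closing section. Under size-factor scaling the share of rises among all called genes was 30.4%, against 19.9% as deposited, and 0 members were called. Of the wider machinery 2 of 131 genes fell, of which Urb1, a large subunit factor, had 1.27 and 0.799 TPM in mDKO oocytes, against 54.2 and 49.5 TPM in controls (-4.71 ± 0.20, adjusted p = 0.00256), and Nol10, a small subunit factor, changed by -0.50 ± 0.08. By L2C, Urb1 had 0.255 and 0.0198 TPM in mDKO libraries and 0.771 and 0.902 TPM in controls.

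**Figure D3:**
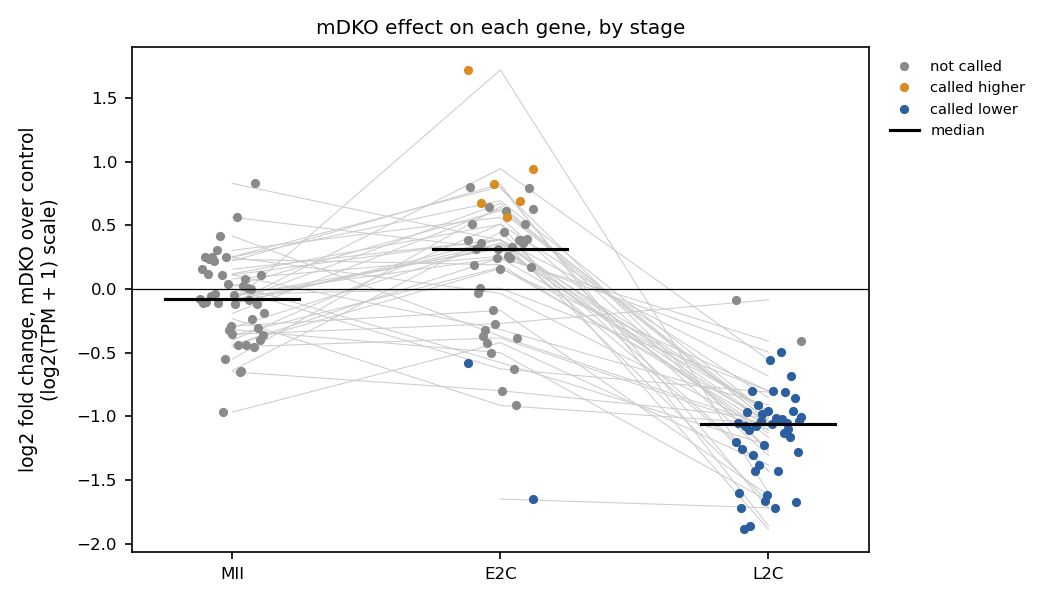
Log2 fold change of mDKO over control (y axis, on the log2(TPM + 1) scale) at MII, E2C and L2C (x axis), with 1 point per gene, a grey line joining the same gene and a black bar at the median. The medians lie at -0.08 for MII, 0.32 for E2C and -1.06 for L2C.

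The effect of mDKO differed between L2C and E2C for most of the set. In a fit over all 12 uninjected libraries, the interaction, which is the mDKO effect at L2C minus that at E2C, was negative and called for 34 of 45 members, against 12.5% of all 14316 genes, and positive and called for 0, against 13.2%; limma gave no member a positive interaction at an unadjusted p under 0.05. The median was -1.32, against 0.09 over all genes, and of 146 wider factors 75 had a negative and 6 a positive called interaction. The largest differences were -3.32 ± 0.28 for Cebpz (SE; adjusted p = 4.90e-05), -2.69 ± 0.31 for Ftsj3, -2.53 ± 0.22 for Ddx10, -2.40 ± 0.28 for Ddx21 and -2.07 ± 0.35 for Wdr12. Of the 34 calls, 24 held in all 14 alternatives, and leaving out 1 library left 26 to 34. Under size-factor scaling the share of positive calls among all called genes was 41.2%, against 51.4% as deposited. The member count was then 38, where 2241 of all 14316 genes had a negative called interaction. The fit over 12 libraries shares 1 spread over stages whose kits differed.

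Most members were higher at L2C than at E2C in controls, and fewer of them were in mDKO embryos. In controls 40 of 45 members were higher at L2C than at E2C, against 35.5% of all genes, and 1 was lower, against 30.1%, with a median of 2.34. In mDKO embryos 22 were higher, against 31.9%, and 10 were lower, against 20.8%, with a median of 0.49. The difference between genotypes is the interaction given above. These comparisons share their E2C and L2C libraries with those between genotypes. The labels give no kit for L2C, so stage and kit cannot be told apart here either. The fit also gives 1 spread to stages whose kits differed. Nop16 had 486 and 452 TPM in L2C controls, against 2.24 and 5.84 TPM in E2C controls, the largest change of the set (6.64 ± 0.36); in mDKO it had 155 and 129 TPM at L2C, against 0.189 and 0.897 TPM at E2C (6.57 ± 0.36). Both differences rest on E2C levels of a few TPM or less. Nob1 had 123 and 125 TPM in L2C controls, against 5.36 and 4.92 TPM in E2C controls (4.35 ± 0.17), and 40.7 and 36.1 TPM in L2C mDKO, against 3.20 and 3.48 TPM in E2C mDKO (3.18 ± 0.17). Nhp2, Bop1 and Nop2 followed in controls, at 4.06 ± 0.15, 3.75 ± 0.28 and 3.50 ± 0.23, and in mDKO the values were 3.41 ± 0.15, 2.36 ± 0.28 and 3.28 ± 0.23.

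In the 2 genotypes 5 members were called in opposite directions: Ncl, Utp18, Ftsj3, Cebpz and Ddx18 were higher at L2C in controls and lower at L2C in mDKO, a class that held 0.754% of all genes. Of the 41 calls in controls 37 held in all 10 alternatives, and of the 32 in mDKO 28 did. Utp18 lost its call in controls and Cebpz its call in mDKO in some alternatives. Ftsj3 had 32.8 and 43.3 TPM in L2C controls, against 15.9 and 12.8 TPM in E2C controls, and 9.88 and 9.42 TPM in L2C mDKO, against 26.9 and 25.3 TPM in E2C mDKO. Its log2 changes were 1.34 ± 0.22 in controls and -1.35 ± 0.22 in mDKO. Ddx21 had 41.4 and 51.2 TPM in L2C controls, against 7.70 and 6.34 TPM in E2C controls (2.56 ± 0.20), while in mDKO it had 11.8 and 11.6 TPM at L2C and 11.1 and 9.69 TPM at E2C (0.16 ± 0.20, adjusted p = 0.53). In all, 13 members, Ddx21 among them, were called higher in controls and not called in mDKO, against 8.77% of all genes, and 22 were called higher in both, against 26% of all genes, 3722 genes. The lowest changes in mDKO were those of Rrp1b (-1.70 ± 0.22), Ftsj3, Noc4l (-1.09 ± 0.15), Npm1 (-1.01 ± 0.11) and Ncl (-0.93 ± 0.15). In controls Npm1 was the member called lower, at -0.26 ± 0.11 (adjusted p = 0.0487), and this count was 0 under 5 of the other settings and without any 1 of the 4 libraries.

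**Figure D4:**
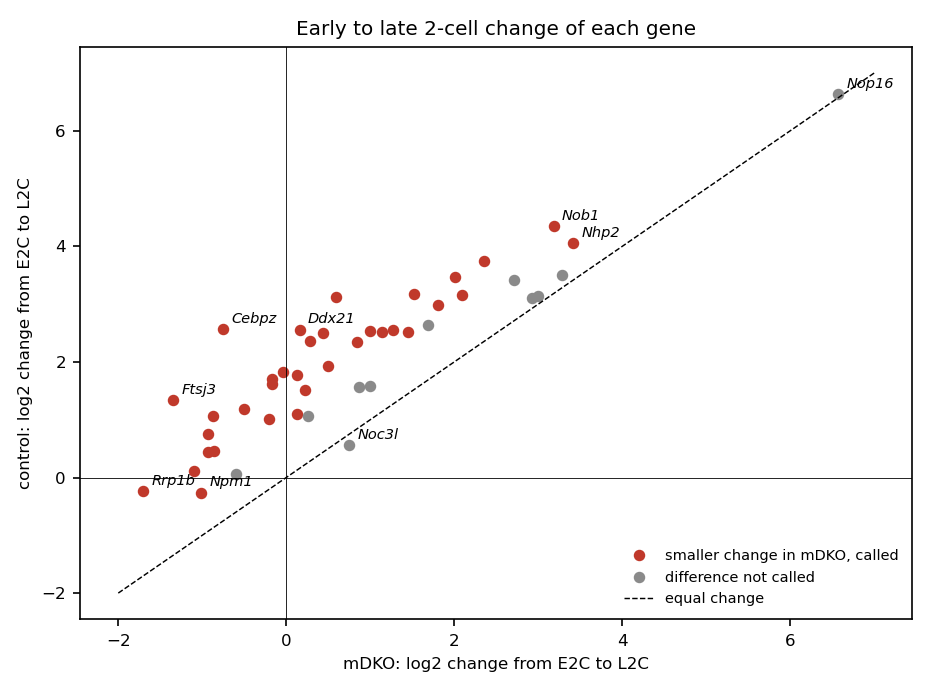
Log2 change between E2C and L2C of each gene in mDKO (x axis) and in controls (y axis), with a dashed line where both are equal; red points are the 34 genes whose difference was called. Noc3l is the 1 gene below the line, Nop16 lies close to it, and the other points lie above it.

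Between MII and E2C controls, members differed in both directions. In controls 26 of 45 members were higher at E2C than at MII, against 35.1% of all genes, and 11 were lower, against 37.0%. The highest were Nhp2 (3.91 ± 0.15), Dkc1 (3.68 ± 0.16), Ddx52 (3.29 ± 0.17), Gnl3 (3.19 ± 0.20) and Nop56 (2.99 ± 0.32). Dkc1 had 83.3 and 79.3 TPM in E2C controls, against 4.97 and 5.88 TPM in MII controls. The lowest were Utp20 (-3.64 ± 0.19), Gar1 (-2.24 ± 0.25), Utp15 (-1.94 ± 0.18), Fbl (-1.72 ± 0.25) and Utp18 (-1.65 ± 0.16). Utp20 had 3.67 and 3.25 TPM in E2C controls, against 52.2 and 57.3 TPM in MII controls. Of the box C/D proteins Nop56 and Nop58 were higher at E2C and Fbl was lower, and of the box H/ACA proteins Gar1 was lower and the other 3 higher. MII libraries were made with a TruSeq Stranded kit and E2C libraries with SMART-Seq kits, so stage and kit cannot be told apart here (the labels give no kit for L2C), and size-factor scaling moved the median of all genes by 0.16.

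In injected E2C embryos members were called in both directions between mDKO with mCherry and control with mCherry. Of 42 members tested (Nop2, Bop1 and Rrp12 were too low), 12 rose, a share near the 26.9% of all 10960 genes, and 5 fell, against 20.0%; the counts alone therefore do not set the members apart. Imp3 had 89.6 and 79.7 TPM in mDKO mCherry libraries, against 10.4 and 10.2 TPM in control mCherry libraries, a rise of 2.92 ± 0.28 (adjusted p = 9.00e-05). Uninjected embryos, from a separately made table, had 98.6 and 89.4 TPM of Imp3 in E2C mDKO and 137 and 108 TPM in E2C controls. Utp18, Rrp1b, Noc4l and Rrp9 rose by 1.63 ± 0.19, 1.33 ± 0.20, 1.31 ± 0.12 and 0.92 ± 0.17. Nop16, Noc3l, Nop10, Dkc1 and Npm1 were the 5 that fell, by 1.29, 0.81, 0.45, 0.44 and 0.36. With the uninjected E2C calls, 1 rise was shared (Nolc1; 1 of 6 uninjected and 1 of 12 injected rises), against 66.1% of uninjected and 14.1% of injected rises over all genes tested in both. Nop16 was called lower in both, with the limit given above for its uninjected call. Of the 42 members 28 had the same sign in both, against 64.9% of all genes, a like share. Of the 17 calls 12 held in all 10 alternatives. Here too all 10 markers of the 2-cell embryo fell, with sums of 405 and 449 TPM in mDKO mCherry libraries, against 1811 and 2112 TPM in control mCherry libraries. Oocyte markers rose for 7 of 10, with sums of 24633 and 24336 TPM in mDKO mCherry libraries, against 19921 and 20573 TPM in control mCherry libraries. The cumulus and granulosa markers rose for 4 of 7 tested, with sums of 432 and 421 TPM in mDKO mCherry libraries, against 85.6 and 77.9 TPM in control mCherry libraries, and blood markers rose for 3 of 5 tested, with sums of 479 and 315 TPM in mDKO mCherry libraries, against 8.71 and 5.36 TPM in control mCherry libraries. The part of these markers in the result was not tested.

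In the TPM as deposited, Kdm3aWT injection was followed by lower values of part of the set in mDKO embryos. Against mDKO with mCherry, 8 of 42 members fell, against 10.8% of all genes, and 0 rose, against 0.949%, with 1 member higher at an unadjusted p under 0.05 by limma. This comparison shares the mDKO mCherry libraries with the one just given. In 35 of 42 members both Kdm3aWT libraries lay below both mCherry libraries, against 49.9% of all genes, and the median was -0.41, against -0.19 over all genes; under size-factor scaling the members' median was -0.18. Ncl had 51.1 and 50.7 TPM in Kdm3aWT libraries, against 90.7 and 86.2 TPM in mDKO mCherry libraries (-0.79 ± 0.09, adjusted p = 0.00156). Ddx18 had 57.3 and 58.04 TPM in Kdm3aWT libraries, against 93.6 and 90.2 TPM in mCherry libraries (-0.66 ± 0.09). Both had Kdm3aWT libraries that were nearly equal and below both mCherry libraries. Nop58, Wdr12, Ddx52, Wdr75, Gnl3 and Mrto4 fell by 0.81, 0.74, 0.57, 0.49, 0.47 and 0.40. None of the 8 calls held in all 10 alternatives. Under size-factor scaling, which moved the median of all genes by 0.19, 2 of the 42 members fell and 1 rose. Of all 10960 genes 567 fell and 331 rose under that scaling, so the scaled counts do not set the members apart. The share of rises among all called genes was 36.9%, against 8.07% as deposited. Members gained calls without Kdm3aWT replicate 2. They lost calls without Kdm3aWT replicate 1 or either mCherry replicate. Each of these fits leaves 1 library in a group, and shares over all genes are not given. Of 7 tested cumulus and granulosa markers 4 fell, with sums of 259.7 and 250.2 TPM in Kdm3aWT libraries, against 432 and 421 TPM in mDKO mCherry libraries. Of 5 tested blood markers 3 fell, with sums of 6.52 and 2.84 TPM in Kdm3aWT libraries, against 479 and 315 TPM in mDKO mCherry libraries, and of 10 markers of the 2-cell embryo 7 rose, with sums of 700.0 and 826 TPM in Kdm3aWT libraries, against 405 and 449 TPM in mDKO mCherry libraries; their part was not tested.

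For Kdm3aHA against mDKO with mCherry, 2 of 42 members fell, against 9.29% of all genes, and 0 rose, against 1.54%, with 2 members higher at an unadjusted p under 0.05 by limma. Imp3 had 23.8 and 42.7 TPM in Kdm3aHA libraries, against 89.6 and 79.7 TPM in mDKO mCherry libraries (-1.37 ± 0.28), and Rrs1 had 0.483 and 0.248 TPM in Kdm3aHA libraries, against 1.78 and 1.59 TPM in mDKO mCherry libraries (-0.98 ± 0.26). Of 7 tested cumulus and granulosa markers 4 fell, with sums of 235 and 249.7 TPM in Kdm3aHA libraries. Of 5 tested blood markers 3 fell, with sums of 3.13 and 0.0611 TPM. Of 10 markers of the 2-cell embryo 2 rose and 0 fell, with sums of 530 and 573 TPM. The mDKO mCherry sums are given above, and the part of these markers was not tested. Neither call held in all alternatives. Calls were lost without either mCherry replicate and without Kdm3aHA replicate 1, and each such fit leaves 1 library in a group. Under size-factor scaling 1 member fell and 1 rose, where 758 of all 10960 genes fell and 350 rose. The share of rises among all called genes was then 31.6%, against 14.2% as deposited. Set directly against each other, Kdm3aWT gave 4 members lower than Kdm3aHA, against 1.97% of all genes, and 0 higher, against 1.32%, with 1 member higher at an unadjusted p under 0.05 by limma. These were Wdr12 (-0.81 ± 0.16), Dkc1 (-0.69 ± 0.15), Ddx18 (-0.57 ± 0.09) and Ncl (-0.53 ± 0.09). Ncl had 51.1 and 50.7 TPM in Kdm3aWT libraries, against 72.7 and 75.00 TPM in Kdm3aHA libraries, with no overlap. Of 10 markers of the 2-cell embryo 7 were higher with Kdm3aWT and 0 lower, and their part was not tested. The count of lower members was 0 under size-factor scaling, where 95 of all 10960 genes were lower. That scaling moved the median of all genes by 0.10 and the share of rises among all called genes to 57.4%, against 40.2%. Members gained calls without Kdm3aWT replicate 2 and lost them without Kdm3aWT replicate 1 or either Kdm3aHA library. Each of these fits leaves 1 library in a group, and shares over all genes are not given.

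Set against control embryos with mCherry, Kdm3aWT-injected mDKO embryos had 15 of 42 members that fell, against 29.6% of all genes, and 5 that rose, against 17.0%, so these counts too do not set the members apart. The rises were those of Imp3 (2.66 ± 0.28), Utp18 (1.23 ± 0.19), Noc4l (1.13 ± 0.12), Rrp1b (0.97 ± 0.20) and Rrp9 (0.58 ± 0.17), which share the control mCherry libraries with the rises given above. Nop16, Noc3l, Nob1, Dkc1 and Ddx52 were the lowest, at -1.56 ± 0.26, -1.14 ± 0.17, -1.01 ± 0.22, -0.85 ± 0.15 and -0.78 ± 0.15. Of these 20 calls 15 held in all 10 alternatives. All 10 markers of the 2-cell embryo fell, with sums of 700.0 and 826 TPM in Kdm3aWT libraries, against 1811 and 2112 TPM in control mCherry libraries, and of 10 oocyte markers 4 rose and 2 fell, with sums of 23205 and 22624 TPM in Kdm3aWT libraries, against 19921 and 20573 TPM in control mCherry libraries. Cumulus and granulosa markers summed to 259.7 and 250.2 TPM in Kdm3aWT libraries, against 85.6 and 77.9 TPM in control mCherry libraries. The part of these markers was not tested. Size-factor scaling moved the median of all genes by 0.16. It moved the share of rises among all called genes to 52.1%, against 36.5% as deposited.

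**Figure D5:**
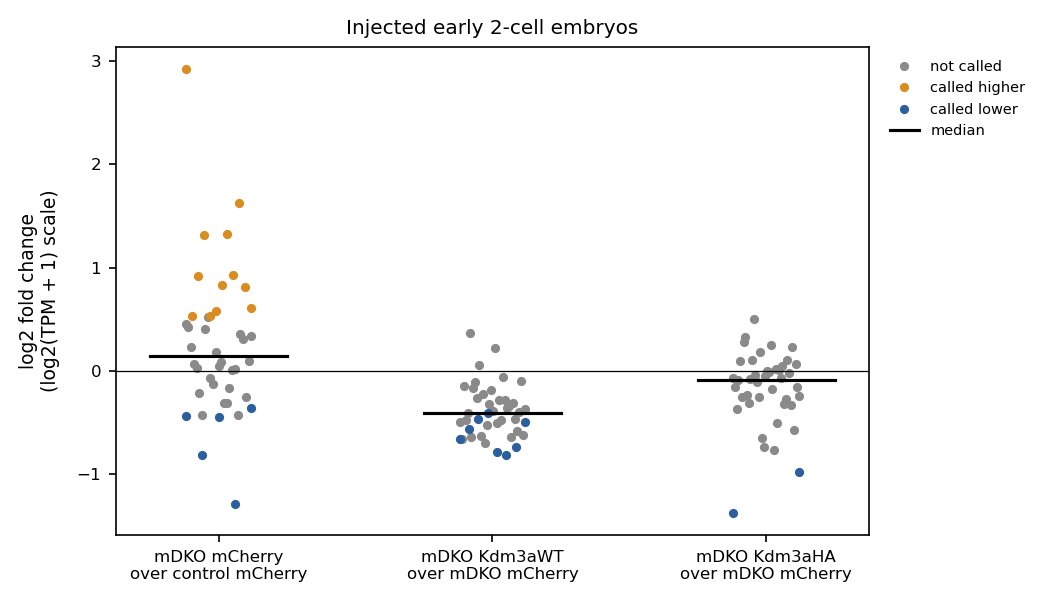
Log2 fold change (y axis, on the log2(TPM + 1) scale) of each tested gene in 3 comparisons of injected E2C embryos (x axis), with a black bar at the median. The comparisons share the mDKO mCherry libraries; Imp3 is the highest point at 2.92 on the left, and the median for Kdm3aWT over mCherry lies at -0.41.

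In wild-type 4C embryos limma called 0 of 45 members in each of the 3 comparisons, and 0.0% of all 9669 genes in either direction. At an unadjusted p under 0.05 there were 6 members for Kdm3aWT over mCherry (776 genes), 1 for Kdm3aHA over mCherry (264 genes) and 0 for Kdm3aWT over Kdm3aHA (227 genes). The medians were 0.77, 0.54 and 0.12, against 0.44, 0.35 and 0.08 over all genes, and under size-factor scaling the members' medians were 0.23, 0.13 and 0.02. In 26 of 45 members both Kdm3aWT libraries were above both mCherry libraries, against 39.6% of all genes. Rrp9, chosen after its values were seen, had 70.6 and 83.02 TPM in Kdm3aWT libraries, 34.2 and 92.2 TPM in Kdm3aHA libraries and 36.3 and 12.1 TPM in mCherry libraries. Ddx21 had 110.2 and 126 TPM in Kdm3aWT libraries, 91.8 and 127 TPM in Kdm3aHA libraries and 137 and 67.3 TPM in mCherry libraries. Ftsj3 had 99.2 and 101 TPM in Kdm3aWT libraries, 94.7 and 139 TPM in Kdm3aHA libraries and 94.5 and 28.5 TPM in mCherry libraries. In all 3 genes the second mCherry library was the low one, and the first lay within or near the range of the other libraries. Over the members the second mCherry library was lower than the first by a median of 1.05 on the log2 scale. Size-factor scaling moved the median of all genes by -0.43 for Kdm3aWT and -0.34 for Kdm3aHA over mCherry. For Kdm3aWT over mCherry, members gained calls only without mCherry replicate 1. In that fit the low second library alone stood for mCherry, and the share over all genes is not given.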

How the data were processed

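RNA-seq levels of 26 libraries in 13 groups were read from 3 tables that the authors deposited in TPM, a length-scaled level with the same sum in each library. Per the submitters' processing notes the tools were RSEM 1.3.1, Bowtie2 2.3.4.1, SAMtools 1.9 and STAR 2.7.10b on mm10, with no role stated. The sources used here do not give annotation, filters, strand setting or read depth, so counting error cannot be stated, and reads shared with pseudogenes or overlapping genes cannot be told apart. Every column matched 1 sample by its name, and 0 columns were left out. Tests were made within a table only.

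Levels were tested as log2(TPM + 1) with limma 3.58.1 in R 4.3.3 (two-sided, variance trend, Benjamini-Hochberg over all genes tested, called at an adjusted p under 0.05), on genes with at least 1 TPM in at least 2 libraries of the fit; adding 1 TPM understates changes of low genes. mDKO was compared with control in the 4 libraries of each stage. Contrasts across stages used the 12 uninjected libraries in 1 fit, injected E2C contrasts the 8 libraries of their table and 4C contrasts the 6 of theirs. With 2 libraries against 2, an exact permutation test cannot go below p = 0.333, so single values such as summed TPM were not tested. The fitting step was tested on simulated data. Alternatives were a pseudocount of 0.1, no filter, size-factor scaling, the replicate number as a block, no variance trend, another set of libraries in the fit and leaving out each library.

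The members and gene lists were chosen with earlier results of these data known. Within each functional group, per-library values are given for the 2 members with the largest absolute L2C fold change (all where a group has 3 or fewer). In other comparisons up to 5 called members per direction are named, as is every member not tested or not called at L2C. Promoters were read from a RefSeq table (GRCm38.p6), and motifs were matched letter by letter on both strands.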

Additional observations from a re-analysis of the deposited data

Results flagged for a closer look

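For 34 of the 45 genes, the effect of mDKO differed between L2C and E2C by a test of the difference itself, the limma interaction over the 12 uninjected libraries with a Benjamini-Hochberg adjusted p under 0.05. All 34 differences, given as the log2 effect at L2C minus that at E2C, were negative. For the box C/D proteins they were -1.87 for Nop56, -1.65 for Nop58 and -1.07 for Fbl. For the box H/ACA proteins they were -1.28 for Dkc1, -1.37 for Nop10 and -0.65 for Nhp2. For the nucleolar proteins they were -1.68 for Ncl, -0.75 for Npm1, -1.50 for Nolc1 and -1.87 for Gnl3.

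In the small subunit processome the differences were -1.79 for Heatr1, -1.07 for Utp15, -1.21 for Wdr43, -1.64 for Wdr75, -1.32 for Utp18 and -2.06 for Utp3. They were -1.55 for Utp14a, -1.37 for Utp20, -1.20 for Noc4l, -1.69 for Nat10, -2.53 for Ddx10 and -1.27 for Ddx52. For the later small subunit factors they were -1.18 for Rrp12, -1.44 for Bysl and -1.16 for Nob1. In the PeBoW complex they were -1.40 for Bop1 and -2.07 for Wdr12. For the other large subunit factors they were -2.40 for Ddx21, -2.69 for Ftsj3, -3.32 for Cebpz, -1.45 for Noc2l, -1.46 for Rrp1b, -1.93 for Ddx18 and -0.96 for Mrto4. With 2 libraries in each group, no library could be checked as an outlier within its group.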

How the results depend on the processing

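The alternatives left the L2C result in place: 36 to 43 members fell and 0 rose under each of the 10 alternatives run. Over all comparisons, single genes kept their side of the threshold in 6371 cases, gained the call in 107 and lost it in 255. No called gene changed direction, but a gene not called in either fit could change sign and still count as kept. The causes of the changes below were not tested. MII called 2 higher and 1 lower with all 12 libraries in 1 fit. At E2C the 6 higher were 1 with no filter, 10 under size-factor scaling, 2 without the variance trend and 1 to 14 with 1 library left out; the 2 lower were 0, 1, 0 and 0 to 5. The 1 control member lower at L2C than E2C was 0 at a pseudocount of 0.1, with no filter, under scaling, without the trend and with any 1 library left out. For Kdm3aWT over mCherry the 8 lower were 2 under scaling (1 higher), 4 without the trend and 0 to 15 with 1 library left out. For Kdm3aHA over mCherry the 2 lower were 1 at a pseudocount of 0.1, 0 with no filter, 1 under scaling (1 higher) and 0 to 2 with 1 library left out; with only the groups compared, 2 were higher. For Kdm3aWT over Kdm3aHA the 4 lower were 0 with no filter, under scaling, without the trend and with only the groups compared, and 0 to 12 with 1 library left out (0 to 1 higher). In 4C, Kdm3aWT over mCherry gained calls only without mCherry replicate 1, a fit that leaves the library with 7649 genes alone as the mCherry group. A fit with 1 library of a group left out assumes that the lone library varies like the other groups. Shares over all genes are not given for these fits, so their counts do not set the members apart.

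With the replicate number as a block, MII called 3 members higher and 4 lower, E2C 10 higher, control L2C over E2C 0 lower and Kdm3aHA over mCherry 1 lower. The numbers are shared by 2 pairs only and nothing in the labels ties them to a batch. Same-numbered MII libraries deviated together (r = 0.30 across 14316 genes), as did 4C Kdm3aWT and mCherry libraries (r = 0.18 across 9669 genes), while r was -0.0033 at E2C and 0.041 at L2C. Whether the numbers pair the MII libraries cannot be told from 2 pairs and the labels. The block fits and the other settings above are given without shares over all genes. Their counts alone therefore do not set the members apart.

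TPM without depth gives no counting error, and 2 libraries per group limit the precision of every value.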
